A study of Mus musculus with 11 samples.

Results

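This account covers 32 genes for protein folding, quality control and translocation in the endoplasmic reticulum (ER), out of 31936 genes in a table of mouse macrophage RNA sequencing. The genes were chosen by name, with earlier results of these data known, and each was taken from the row that carries its symbol. All 32 were found, and all 32 passed the filter on low values (a log2 CPM no lower than -1 in 5 libraries or more, where CPM is the reads of a gene relative to the scaled total of its library), which kept 12969 genes for testing. Total RNA came from peritoneal macrophages of female mice, inflammatory cells drawn into the abdomen by thioglycollate. In 6 libraries the cells had received a microRNA-150 (miR-150) mimic, a synthetic duplex that acts as extra copies of this microRNA, and in 5 libraries they had received a negative control. Strain, age, dose and time after the mimic were not given in the labels, which name no other allele or agent for either group. Libraries of this kind do not capture mature microRNAs, so the amount of miR-150 in the cells was not checked. The series concerns macrophage miR-150 and abnormal vessel growth in age-related macular degeneration, and the comparison asks how transcript levels differ once the mimic is present. Whether replicates are different animals, cultures or repeat preparations is not stated, so each p-value covers only the spread seen among these libraries, and that spread may be technical.

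Secreted and membrane proteins enter the ER through the Sec61 channel and are folded there by HSP70 and HSP90 chaperones, by the lectins calnexin and calreticulin, and by enzymes that form disulfide bonds. Chains that fail to fold are carried back to the cytosol and degraded, a route called ER-associated degradation (ERAD). When unfolded protein builds up, the sensors ATF6, IRE1 and PERK start the unfolded protein response, which raises transcription of many of these chaperones. Macrophages depend on this machinery for cytokines, lysosomal enzymes and surface receptors.

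Depth ranged over 20313901 to 25473814 reads in the mimic libraries and 18538509 to 22668862 in the control libraries. All 12 macrophage markers passed the filter, though Cd163 only narrowly, at a mean of 0.74 CPM with the mimic and 0.65 with the control. The summed level of the 12 was 16568 to 20879 CPM with the mimic and 18220 to 21051 CPM with the control. Lyz2 made up most of that sum, with a mean of 11130 CPM with the mimic and 13000.1 with the control. Of the 12, Fcgr1 (log2 fold change 1.32), Msr1 (0.55) and Adgre1 (0.18) were called higher, and Lyz2 (-0.23) and Cd14 (-0.26) lower. Mimic replicates 3, 4 and 6 had the steepest rise with transcript length of all libraries. In each of these 3 libraries the level of a gene relative to the mean library rose with the length of its longest transcript, by 0.058, 0.089 and 0.072 log2 units per doubling of length. The slope was -0.063, 0.017 and -0.0023 in mimic replicates 1, 2 and 5, and between -0.050 and -0.024 in the control libraries. Mimic replicates 2 and 5 thus also lay above every control library, and mimic replicate 1 below them all. In a fit that weights libraries (voom), mimic replicate 1 had the lowest weight, 0.356, and mimic replicate 3 the highest, 1.82. Results on the ER genes are therefore given with and without replicates 3, 4 and 6, and after a correction for transcript length in each library. The part of this length trend in any single result was not tested beyond those fits.

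With the mimic, 11 of the 32 ER genes rose and 2 fell, by limma at a Benjamini-Hochberg adjusted p below 0.05 over all tested genes. The genes that rose encode luminal chaperones (Hspa5, Hsp90b1 and Dnajb11), the lectin chaperone Canx with its partner Pdia3, the disulfide enzymes Pdia4, Pdia6 and Ero1l, the stress-induced factor Creld2, the sensor Atf6 and the translocon-associated subunit Ssr3. Those that fell were Herpud1, an ERAD scaffold, and Sdf2l1, a cochaperone. No change was large: called differences ran from -0.33 to 0.32 on the log2 scale. The 11 genes are 34.4% of the 32, against 15.4% of all tested genes called higher. The 2 are 6.25%, against 14.6% of all tested genes called lower. Because the genes were chosen with earlier results of these data known, these shares are a description and not a test. The median log2 fold change was 0.075 over the 32 genes and 0.00071 over all tested genes. Upper-quartile scaling moved the split for the ER genes and for all genes alike: 8 ER genes were called higher and 4 lower, against 11.4% and 19.0% of all tested genes, and the median was 0.042 over the ER genes and -0.032 over all. Without mimic replicate 1 more genes were called in general, 14 ER genes higher and 5 lower, against 20.8% and 19.3% of all tested genes. In a bulk sample, fewer cells of a type and less RNA per cell cannot be told apart.

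Without mimic replicates 3, 4 and 6, 7 ER genes were called higher and 2 lower, against 9.36% and 6.83% of all tested genes, and the median log2 fold change was 0.045. Hspa5, Dnajb11, Canx, Pdia3, Pdia4 and Pdia6 were still called higher in that fit, together with Calr, and Herpud1 and Sdf2l1 were still called lower. Hsp90b1, Ero1l, Creld2, Atf6 and Ssr3 were not. After the length correction, 11 were called higher and 3 lower, against 16.4% and 14.9% of all tested genes, with a median of 0.041; Calr joined the higher calls in place of Atf6, and Eif2ak3 joined the lower calls.

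The libraries of the groups did not overlap for 9 of the 32 genes. Every mimic library lay above every control library for Hspa5, Dnajb11, Canx, Pdia3, Pdia4, Pdia6 and Atf6, which makes 7 genes, against 8.89% of all tested genes. For Herpud1 and Sdf2l1 every mimic library lay below every control library, against 6.04% of all tested genes. The mimic libraries also varied more among themselves. The standard deviation was larger with the mimic for 31 of the 32 genes, against 70.1% of all tested genes, and its median over the 32 genes was 0.090 log2 units with the mimic and 0.043 with the control.

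**Figure D1:**
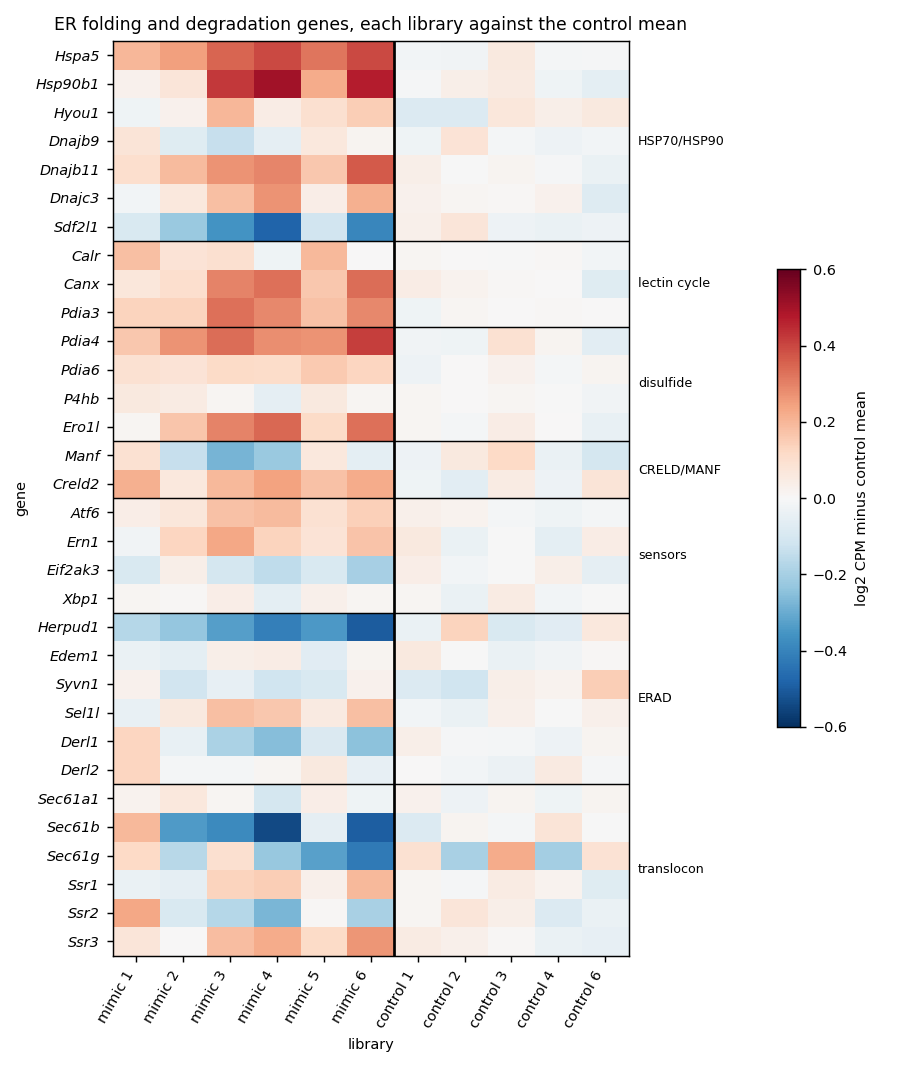
Log2 CPM of each of the 32 ER genes (rows, grouped by role) in each library (columns), minus the mean of the 5 control libraries; red is above and blue below that mean. The 6 mimic columns show more colour than the control columns, and Hspa5, Pdia4, Pdia3 and Dnajb11 are red while Herpud1 and Sdf2l1 are blue in every mimic library.

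In promoters of this gene class the unfolded protein response acts through the ER stress element, in which CCAAT and CCACG are separated by 9 bases, and through a shorter form, ER stress element II, in which ATTGG and CCACG are separated by 1 base. Both were searched on both strands, from 250 bases before to 50 bases after the RefSeq start of each gene (GRCm38.p6), and 26 of the 32 genes had an entry. The first element was found in 8 of the 26, namely Hspa5, Hsp90b1 (at 2 places), Canx, Pdia6, Creld2, Calr, Dnajc3 and Syvn1, against 0.119% of all 32851 promoters in the table. The shorter form was found in Herpud1 and Dnajb11, against 0.0365% of all promoters; in Dnajb11 it begins 7 bases after the start. Another string, TGACG followed directly by TGG, was found in none of the 26, against 0.676% of all promoters. No element overlapped another in these genes.

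The windows below are shown because genes called higher (Hspa5, Hsp90b1, Canx, Pdia6 and Creld2), a gene not called (Calr) and a gene called lower (Herpud1) all carry such an element. They are printed in the direction of each gene, 5′ to 3′, from chr2:34772010-34772058 (plus strand) for Hspa5, chr10:86705623-86705671 (minus strand) for Hsp90b1, chr11:50325785-50325833 (minus strand) for Canx, chr12:17266476-17266524 (plus strand) for Pdia6, chr15:88819505-88819553 (plus strand) for Creld2, chr8:84847060-84847108 (minus strand) for Calr and chr8:94386362-94386402 (plus strand) for Herpud1. Capitals mark the element, which reads as CGTGG and then ATTGG where it lies on the other strand (Creld2 and Calr), and in Herpud1 they include the single base inside the shorter form.
Hspa5: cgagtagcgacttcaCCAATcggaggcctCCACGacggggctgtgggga
Hsp90b1: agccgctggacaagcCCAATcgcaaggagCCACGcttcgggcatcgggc
Canx: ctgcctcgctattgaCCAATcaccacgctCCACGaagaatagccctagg
Pdia6: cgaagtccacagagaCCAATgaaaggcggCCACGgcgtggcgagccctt
Creld2: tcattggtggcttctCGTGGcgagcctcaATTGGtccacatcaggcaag
Calr: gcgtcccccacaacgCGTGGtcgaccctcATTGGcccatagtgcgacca
Herpud1: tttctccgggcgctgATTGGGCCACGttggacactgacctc

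The element began 65 bases before the start in Hspa5, 98 in Pdia6, 126 in Creld2, 145 in Canx, 162 in Calr and 52 in Herpud1, and at 212 and 107 in Hsp90b1. Of the 10 genes with either element, 6 were called higher, 1 lower and 3 neither way, with a median log2 fold change of 0.15. The 16 genes in the table with neither element gave 4 higher, 1 lower and 11 neither way, with a median of 0.022. These counts are a description, and the difference between them was not tested.

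Counts by role, here and below, cover groups of 2 to 7 genes and are a description, beside 15.4% of all tested genes called higher and 14.6% lower. Among the 7 luminal HSP70 and HSP90 chaperones and cochaperones, 3 rose, 1 fell and the median log2 fold change was 0.12. Hspa5 (BiP; ENSMUSG00000026864, chr2:34771970-34777547), the HSP70 of the ER lumen that binds unfolded chains and holds the stress sensors inactive, had 9.64 log2 CPM in the lowest mimic library, 9.78 at the median and 9.84 in the highest, against 9.42, 9.42, 9.50, 9.43 and 9.43 log2 CPM in the control libraries. The groups did not overlap, and the lowest mimic library exceeded the highest control library. Hspa5 was 1.25-fold higher with the mimic (log2 fold change 0.32 ± 0.042 SE), and its limma adjusted p of 3.81e-05 was the smallest of the 32 genes. It was 0.25 without mimic replicates 3, 4 and 6 and 0.30 after the length correction.

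Dnajb11 (ERdj3; ENSMUSG00000004460, chr16:22857845-22879634), a J-domain protein that delivers substrates to BiP, had 6.97, 7.10 and 7.24 log2 CPM in the lowest, median and highest mimic library, against 6.90, 6.87, 6.89, 6.86 and 6.83 in the control libraries. No mimic library fell within the control range, and the log2 fold change was 0.23 ± 0.046 (SE; limma adjusted p = 0.00194), and 0.15 without mimic replicates 3, 4 and 6. Its binding partner Sdf2l1 (ENSMUSG00000022769, chr16:17130138-17132383), which forms a stable complex with this J-domain protein, went the other way. Sdf2l1 had 5.98, 6.17 and 6.37 log2 CPM in the lowest, median and highest mimic library, against 6.49, 6.53, 6.43, 6.42 and 6.43 in the control libraries. All 6 mimic libraries were below the controls, and replicates 3, 4 and 6 were the lowest of them. The log2 fold change was -0.28 ± 0.064 (SE; limma adjusted p = 0.00501), and its size shrank to -0.14 without those 3 libraries (adjusted p = 0.0163) and to -0.13 after the length correction (adjusted p = 0.0118).

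Hsp90b1 (GRP94, ENSMUSG00000020048, chr10:86690209-86705509), the ER member of the HSP90 family, which folds integrins and Toll-like receptors, lost its call without mimic replicates 3, 4 and 6. It had 9.10, 9.18 and 9.15 log2 CPM in mimic replicates 3, 4 and 6 and 8.70, 8.75 and 8.90 in replicates 1, 2 and 5, against 8.67, 8.71, 8.73, 8.65 and 8.62 in the control libraries. Replicate 1 fell within the control range. The log2 fold change was 0.29 ± 0.080 (SE; limma adjusted p = 0.0160) with all libraries, 0.29 after the length correction (adjusted p = 0.0234) and 0.11 without replicates 3, 4 and 6, where the call was lost (adjusted p = 0.0740).

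The other 3 of these chaperones did not pass the test. Dnajc3 (P58IPK), a BiP cochaperone, had a log2 fold change of 0.12 (limma adjusted p = 0.0715), and 0.029 without mimic replicates 3, 4 and 6. Hyou1, the nucleotide exchange factor of BiP, had 0.081 (adjusted p = 0.208). Dnajb9 (ERdj4), a J-domain protein that targets chains for degradation, had -0.019 (adjusted p = 0.807), with 3.96 to 4.17 log2 CPM with the mimic and 4.07 to 4.18 with the control.

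**Figure D2:**
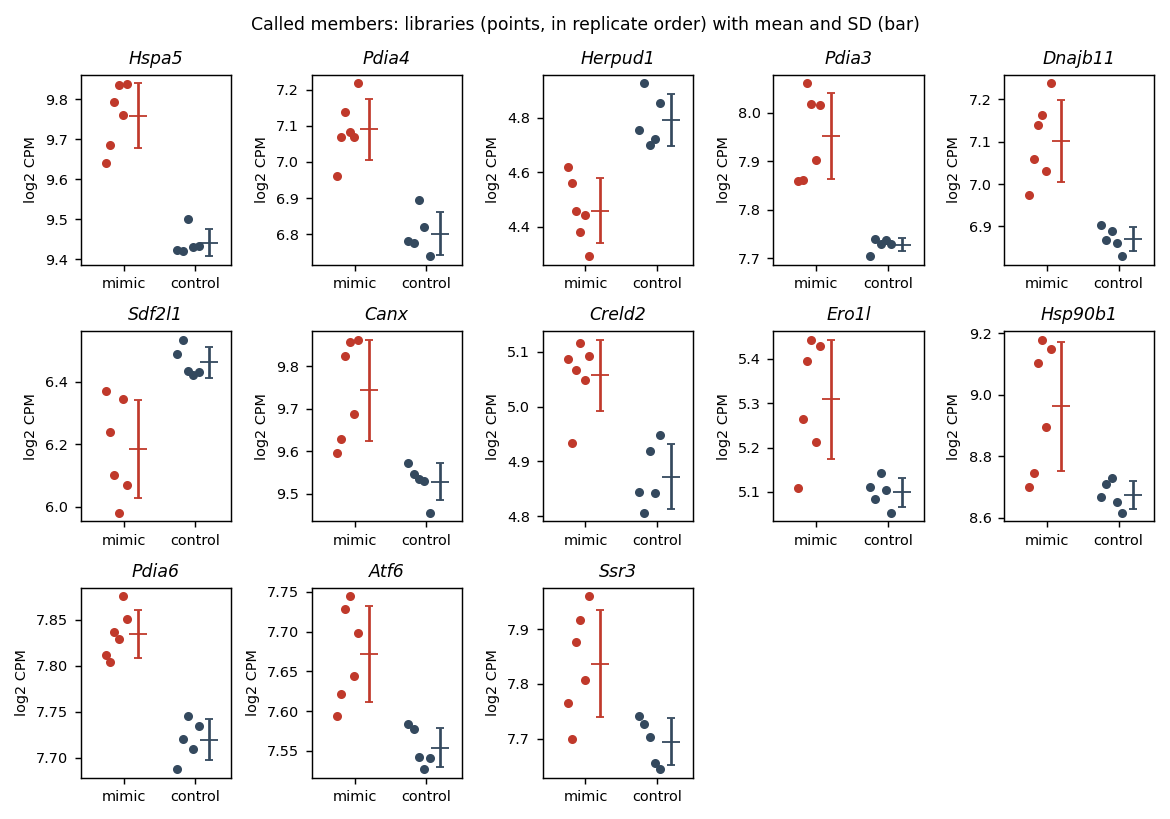
Log2 CPM of the 13 called ER genes in each of the 6 mimic (red) and 5 control (blue) libraries, with the mean and standard deviation beside the points; each panel has its own axis, which does not start at 0. Groups are separate for 9 of the 13, and touch for Hsp90b1, Ero1l, Creld2 and Ssr3.

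In the calnexin and calreticulin cycle, which retains glycoproteins until they fold, 2 of 3 genes rose and the median log2 fold change was 0.22. Canx (calnexin; ENSMUSG00000020368, chr11:50293961-50325673), the membrane lectin, had 9.60, 9.76 and 9.86 log2 CPM in the lowest, median and highest mimic library, against 9.57, 9.55, 9.53, 9.53 and 9.46 in the control libraries. The lowest mimic library was just above the highest control library. Its log2 fold change was 0.22 ± 0.052 (SE; limma adjusted p = 0.00653), and 0.11 without mimic replicates 3, 4 and 6 (adjusted p = 0.0266).

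Pdia3 (ERp57; ENSMUSG00000027248, chr2:121413775-121438687), the oxidoreductase that works with both lectins, had 7.86, 7.96 and 8.06 log2 CPM in the lowest, median and highest mimic library, against 7.70, 7.74, 7.73, 7.74 and 7.73 in the control libraries. The control libraries were tightly grouped and all lay below the mimic libraries. Its log2 fold change was 0.22 ± 0.043 (SE; limma adjusted p = 0.00134), and 0.15 without mimic replicates 3, 4 and 6 (adjusted p = 0.00202). Calr (calreticulin; ENSMUSG00000003814), the soluble lectin and the most abundant of the 32 genes, had 10.08, 9.99, 10.00, 9.88, 10.10 and 9.91 log2 CPM in mimic replicates 1 to 6 against 9.89 to 9.92 in the control libraries. Replicate 4 was below the control range, and replicate 6 within it, so the groups overlapped. Its log2 fold change of 0.087 was not called with all libraries (limma adjusted p = 0.132), but it was 0.15 without mimic replicates 3, 4 and 6 (adjusted p = 0.00165) and 0.12 after the length correction (adjusted p = 0.00654).

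Of the 4 genes for disulfide bonds, 3 rose and the median log2 fold change was 0.16. Pdia4 (ERp72; ENSMUSG00000025823, chr6:47796141-47813430), a protein disulfide isomerase found with BiP in chaperone complexes, had 6.96, 7.08 and 7.22 log2 CPM in the lowest, median and highest mimic library, against 6.78, 6.77, 6.89, 6.82 and 6.74 in the control libraries. The groups did not overlap, and the log2 fold change was 0.29 ± 0.046 (SE; limma adjusted p = 0.000288), a 1.22-fold difference, and it was 0.23 without mimic replicates 3, 4 and 6.

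Pdia6 (P5; ENSMUSG00000020571, chr12:17266545-17284770), another isomerase that binds BiP, differed little but evenly. It had 7.80, 7.83 and 7.88 log2 CPM in the lowest, median and highest mimic library, against 7.69, 7.72, 7.75, 7.71 and 7.73 in the control libraries. Its log2 fold change was 0.11 ± 0.033 (SE; limma adjusted p = 0.0160) and stayed at 0.11 without mimic replicates 3, 4 and 6 (adjusted p = 0.0231). Ero1l (ENSMUSG00000021831, chr14:45283087-45318771), the oxidase that recharges the isomerases, had 5.11, 5.33 and 5.44 log2 CPM in the lowest, median and highest mimic library, against 5.11, 5.08, 5.14, 5.10 and 5.05 in the control libraries. Mimic replicate 1 fell within the control range and replicates 3, 4 and 6 were the highest. Ero1l changed by 0.21 ± 0.059 on the log2 scale (SE; limma adjusted p = 0.0145), and it was not called at 0.096 without those 3 libraries (adjusted p = 0.200). P4hb, the founding protein disulfide isomerase, had 9.45 to 9.56 log2 CPM with the mimic and 9.48 to 9.51 with the control, a log2 fold change of 0.023 (adjusted p = 0.629).

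Creld2 and Manf encode small ER proteins that are induced and partly secreted under stress, and 1 of them rose. Creld2 (ENSMUSG00000023272, chr15:88819646-88826683) had 4.93, 5.08 and 5.12 log2 CPM in the lowest, median and highest mimic library, against 4.84, 4.81, 4.92, 4.84 and 4.95 in the control libraries. Mimic replicate 2 lay within the control range, and the other 5 lay above it. Creld2 changed on the log2 scale by 0.19 ± 0.047 (SE; limma adjusted p = 0.00832), 0.15 without mimic replicates 3, 4 and 6 (adjusted p = 0.0532, not called) and 0.30 after the length correction (adjusted p = 0.000806). Manf had 5.46 to 5.83 log2 CPM with the mimic and 5.63 to 5.86 with the control, a log2 fold change of -0.090 (adjusted p = 0.319). Manf is uncertain, because its gene overlaps Dcaf1 on the other strand and Rbm15b on its own strand, and no source used here says whether the authors counted by strand.

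Among the sensors and the transcription factor Xbp1, 1 of 4 rose. Atf6 (ENSMUSG00000026663, chr1:170704674-170867771), the sensor that is cut in the Golgi to release a transcription factor, had 7.59, 7.67 and 7.74 log2 CPM in the lowest, median and highest mimic library, against 7.58, 7.58, 7.54, 7.53 and 7.54 in the control libraries. The groups were separate by a narrow margin, and mimic replicates 3, 4 and 6 were the highest. Atf6 changed on the log2 scale by 0.12 ± 0.038 (SE; limma adjusted p = 0.0278), 0.066 without those 3 libraries (adjusted p = 0.193) and 0.047 after the length correction (adjusted p = 0.252). The call was also lost when any one of mimic replicates 3, 4 and 6 or control replicates 3, 4 and 6 was left out, with adjusted p up to 0.0659.

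Ern1 (IRE1), the sensor that splices Xbp1 RNA, had a log2 fold change of 0.12 (limma adjusted p = 0.0590), with 5 of 6 mimic libraries above the control range. Eif2ak3 (PERK), the sensor that restrains translation, had -0.10 (adjusted p = 0.105), with 5 of 6 mimic libraries below the control range, and -0.14 after the length correction, where it was called lower (adjusted p = 0.0361). Xbp1 had 7.17 to 7.27 log2 CPM with the mimic and 7.20 to 7.28 with the control, a log2 fold change of 0.0064 (adjusted p = 0.908). Counts per gene do not separate the spliced from the unspliced form of Xbp1, and they do not measure cleavage of ATF6 or phosphorylation of PERK.

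None of the 6 ERAD genes rose and 1 fell (16.7%), which is near the 14.6% of all tested genes that fell. Their median log2 fold change was -0.033. Herpud1 (HERP; ENSMUSG00000031770, chr8:94386438-94395377), a membrane scaffold of the HRD1 ubiquitin ligase complex, had 4.29, 4.45 and 4.62 log2 CPM in the lowest, median and highest mimic library, against 4.75, 4.93, 4.70, 4.72 and 4.85 in the control libraries. All 6 mimic libraries lay below all 5 controls. Herpud1 was at 0.795 times the control level, which is -0.33 ± 0.063 (SE) in log2 units with a limma adjusted p of 0.00121. It was -0.25 without mimic replicates 3, 4 and 6 (adjusted p = 0.00432) and -0.28 after the length correction (adjusted p = 0.000864).

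The partners of Herpud1 in that complex did not pass the test. Syvn1 (HRD1), the ubiquitin ligase, had 3.37 to 3.52 log2 CPM with the mimic and 3.37 to 3.64 with the control, a log2 fold change of -0.054 (limma adjusted p = 0.537). Its gene overlaps Mrpl49 on the other strand, which drew a median of 442 reads per library against 235 for Syvn1, so its value is uncertain for the same reason as that of Manf. Sel1l, the adaptor of the ligase, had 0.099 (adjusted p = 0.0981).

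Derl1 and Derl2 form part of the channel through which substrates leave the ER. Derl1 had 7.44, 7.26, 7.12, 7.05, 7.22 and 7.06 log2 CPM in mimic replicates 1 to 6 against 7.28 to 7.34 in the control libraries. Replicate 1 was above the control range and the other 5 were below it. Its log2 fold change was -0.12 with all libraries (limma adjusted p = 0.144) and -0.00096 without mimic replicates 3, 4 and 6. Derl2 had 0.021 (adjusted p = 0.719); it overlaps Mis12 on the other strand, which drew a median of 575 reads against 1689 for Derl2. Edem1, which directs glycoproteins with trimmed mannose to degradation, had -0.012 (adjusted p = 0.820).

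Among the 6 translocon genes 1 rose (16.7%), near the 15.4% of all tested genes that rose, and the median log2 fold change was -0.041. Ssr3 (ENSMUSG00000027828, chr3:65379655-65392623), the gamma subunit of the translocon-associated protein complex, had 7.70, 7.84 and 7.96 log2 CPM in the lowest, median and highest mimic library, against 7.74, 7.73, 7.70, 7.65 and 7.64 in the control libraries. Mimic replicate 2 lay within the control range, and replicates 3, 4 and 6 were the highest. The log2 fold change was 0.14 ± 0.047 (SE; limma adjusted p = 0.0303), and 0.063 without those 3 libraries (adjusted p = 0.263). Its call, like that of Atf6, was lost when any one of mimic or control replicates 3, 4 and 6 was left out, with adjusted p up to 0.0769. The alpha subunit Ssr1 had 0.069 (adjusted p = 0.297) and the beta subunit Ssr2 had -0.083 (adjusted p = 0.406).

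The pore subunit Sec61a1 had 7.66 to 7.83 log2 CPM with the mimic and 7.73 to 7.79 with the control, a log2 fold change of 0.0010 (limma adjusted p = 0.987). Sec61b, a small tail-anchored subunit with the shortest transcript of the 32 genes (723 nt), had 4.38, 3.84, 3.80, 3.64, 4.13 and 3.69 log2 CPM in mimic replicates 1 to 6, against 4.10, 4.20, 4.17, 4.26 and 4.18 in the control libraries. Replicate 1 was above every control library, replicate 5 within their range and the other 4 below. The log2 fold change was -0.27 ± 0.108 (SE; limma adjusted p = 0.0708) with all libraries, -0.067 without replicates 3, 4 and 6 and -0.054 after the length correction. Sec61g had the fewest reads of the 32 genes, 57 to 77 per library with the mimic and 49 to 79 with the control, and at that depth its log2 fold change of -0.15 ± 0.124 (adjusted p = 0.362) was not distinguishable from 0.

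**Figure D3:**
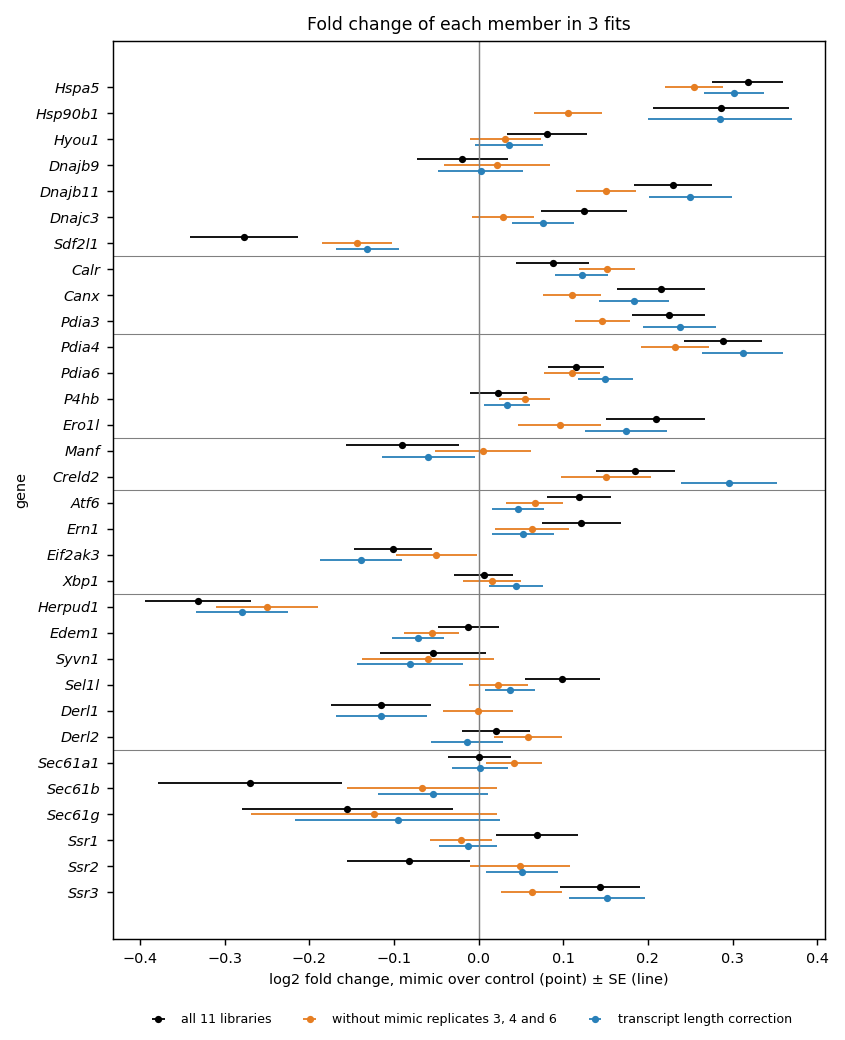
Log2 fold change (mimic over control, point) with its standard error (line) for the 32 ER genes in 3 fits, with all 11 libraries (black), without mimic replicates 3, 4 and 6 (orange) and after the transcript length correction (blue). Hspa5, Pdia4 and Pdia3 stay right of 0 and Herpud1 and Sdf2l1 left of it in each fit, while Sec61b is at -0.27 with all libraries and at -0.067 and -0.054 in the other fits.

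Fold change and transcript length were related among these genes as they were among all genes. Spearman's rho between the log2 fold change and the length of the longest transcript was 0.33 over the 32 genes and 0.25 over the 12933 tested genes with an annotated length; genes share libraries and are not independent replicates, so no p is given. Without mimic replicates 3, 4 and 6, rho was 0.068 over the 32 genes and 0.080 over all. After the length correction rho was 0.032 over the 32 genes and -0.034 over all. Those 3 replicates were left out for their length slopes, and the correction removes the length trend of each library. The weaker relation in both fits thus follows from how they were made. Below 2000 nt, a bound chosen after the values were seen, lay Sdf2l1, Creld2, Herpud1, Sec61b, Sec61g and Ssr2, whose median log2 fold change was -0.21, against 0.093 for the 26 longer genes. Both genes that fell are among these 6, as is Creld2, which rose. Without mimic replicates 3, 4 and 6 the medians were -0.095 for the 6 and 0.056 for the 26.

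**Figure D4:**
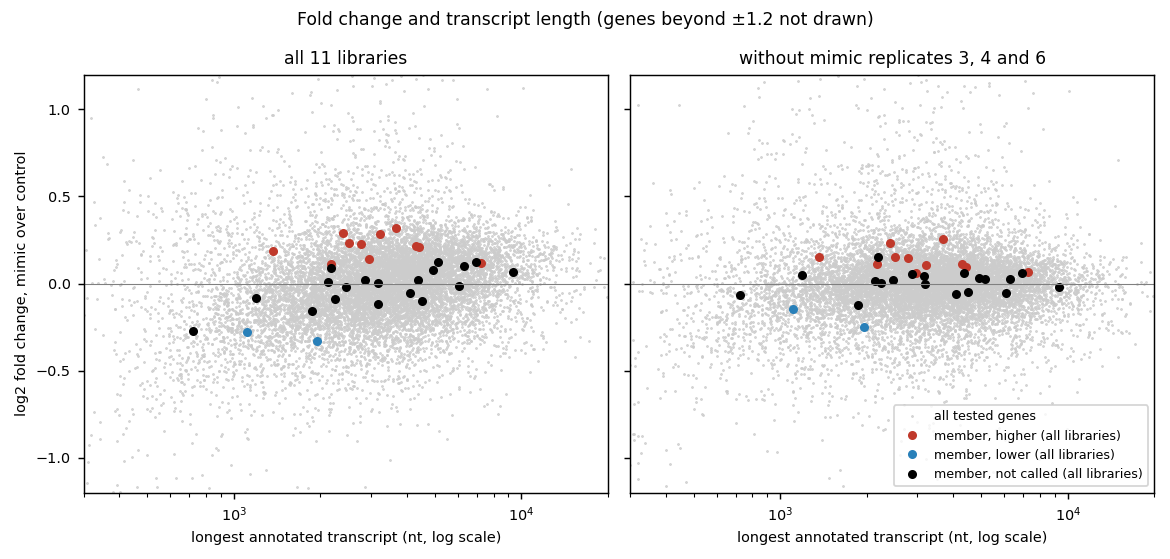
Log2 fold change (mimic over control, vertical axis) against the longest annotated transcript in nt (log horizontal axis) for all tested genes (grey) and the 32 ER genes, coloured by their call with all libraries (red higher, blue lower, black neither). With all 11 libraries (left) rho over the 32 genes is 0.33, and without mimic replicates 3, 4 and 6 (right) it is 0.068.

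The 32 genes together made up 6977 to 7443 CPM in the mimic libraries and 6532 to 6709 CPM in the control libraries, with no overlap. Abundant genes such as Calr, Hspa5, Canx and P4hb weigh most in this sum, and 19 of the 32 genes were not called. It therefore does not show a rise of the genes as a whole. Levels per kilobase of the longest annotated transcript order the genes only roughly, because that transcript need not be the one these cells express. On this scale Calr was the most abundant, at 467 ± 29.2 CPM per kb with the mimic (SD, n = 6) and 439 ± 3.39 with the control (SD, n = 5). P4hb followed at 257 ± 7.37 with the mimic and 253 ± 2.56 with the control, then Hspa5 at 236 ± 13.1 with the mimic and 189 ± 4.43 with the control. Canx, Hsp90b1 and Pdia6 came next in both groups.

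The order over the 32 genes spans chaperones at the top to Syvn1 and Sec61g at the bottom, at 2.65 and 1.47 CPM per kb with the mimic and 2.76 and 1.63 with the control. Of the sensors, Ern1 and Eif2ak3 were low, at 9.95 and 7.84 CPM per kb with the mimic and 9.14 and 8.40 with the control. Atf6 ranked 19 of the 32 by control level, at 28.2 CPM per kb with the mimic and 25.9 with the control. Of the 31 pairs of neighbours in the order of control levels, 8 overlapped in their control ranges, among them Xbp1 with Ssr3, Ssr3 with Sec61a1, Dnajb11 with Pdia4 and Pdia4 with Ssr2.

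**Figure D5:**
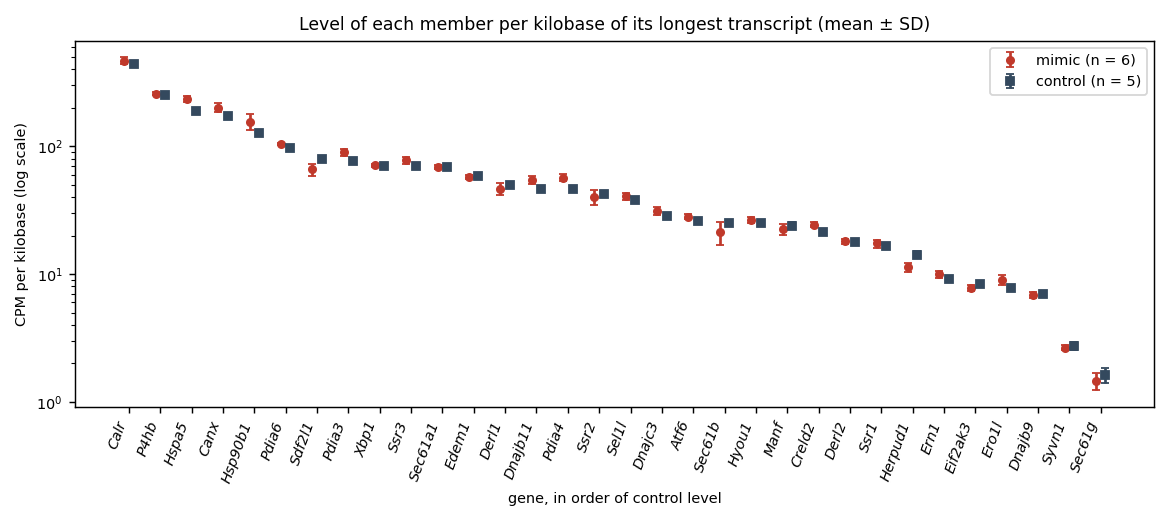
Level of each ER gene in CPM per kilobase of its longest transcript (log vertical axis), as mean with standard deviation over 6 mimic (red circles) and 5 control (blue squares) libraries, in the order of the control level. Calr stands highest, at 467 with the mimic and 439 with the control, and Sec61g lowest, at 1.47 with the mimic and 1.63 with the control.

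Plasma cells carry large amounts of these chaperones, so their markers were read in the same libraries. Of 6 plasma cell markers 3 passed the filter, and 1 of these (Sdc1) was called lower, and the summed level was 382 to 475 CPM with the mimic and 460 to 500 with the control. Almost all of it came from Sdc1 and Prdm1, while Jchain had 0 to 1 reads per mimic library and 0 to 3 per control library, Mzb1 0 to 1 per mimic library and 1 per control library, and Tnfrsf17 0 to 4 per mimic library and 0 to 5 per control library. Of 8 T cell markers 1 passed the filter (Cd28), and it was called higher, with a summed level of 16.7 to 20.5 CPM with the mimic and 13.5 to 16.5 with the control; of 5 eosinophil markers 1 passed the filter (Siglecf), and it was called lower, with a summed level of 27.4 to 29.2 CPM with the mimic and 33.8 to 36.1 with the control. Of 10 neutrophil markers 3 passed the filter, and 1 of these (S100a8) was called lower (summed level 115 to 133 CPM with the mimic and 125 to 139 with the control), as was 1 (Krt8) of 6 mesothelial markers, all tested (4.56 to 8.22 with the mimic and 6.66 to 8.91 with the control). Of 8 B cell and 5 dendritic cell markers 2 each passed the filter, and none of these was called, with adjusted p from 0.212 to 0.873. None of 5 NK cell and 6 mast cell markers passed the filter, so those lists were not tested. The T cell sum was almost all Cd28, at a mean of 17.3 CPM with the mimic and 13.8 with the control. Siglecf gave almost all of the eosinophil sum (27.8 and 34.5), and Csf3r, not called, most of the neutrophil sum (115 and 117). Below the filter, Cd3e had 0 to 1 reads per mimic library and 0 to 2 per control library. Prg2 had 0 to 1 in both groups, and S100a9 0 with the mimic and 0 to 1 with the control. These sums do not measure cell numbers. The part of these marker differences in the results was not tested.

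Other genes of the pathway, from 6 lists, were read in the same fit, with no test of a list. Of all tested genes 15.4% rose and 14.6% fell, or 9.36% and 6.83% without mimic replicates 3, 4 and 6. By list, 10% of the other ER folding factors rose and 17.5% fell. The shares were 10.6% and 19.1% for other ERAD factors, and 13.3% and 30% for translocon and related genes. Of 40 other ER folding factors 4 rose and 7 fell (median log2 fold change -0.014); Sdf4, a calcium-binding protein of the secretory pathway, was 0.19 ± 0.034 (SE; limma adjusted p = 0.000789) and Fkbp9, a prolyl isomerase, was -0.23 ± 0.046 (adjusted p = 0.00180). Of 47 other ERAD factors 5 rose and 9 fell (median -0.070), with the VCP cofactor Ubxn6 at -0.30 ± 0.061 (adjusted p = 0.00195) and the lectin Os9 at 0.15 ± 0.033 (adjusted p = 0.00329). Of 30 other translocon, signal peptidase and oligosaccharyltransferase genes 4 rose and 9 fell (median -0.0081); the small oligosaccharyltransferase subunits Ost4 and Tmem258 were at -0.75 ± 0.157 and -0.65 ± 0.136 (adjusted p = 0.00451 and 0.00485). Without mimic replicates 3, 4 and 6 those 2 were not called (log2 fold changes of -0.50 and -0.40, adjusted p = 0.135 and 0.114), while after the length correction they were (-0.61 and -0.49, adjusted p = 0.00136 and 0.000814). In the fit without those 3 libraries the counts were 4 higher and 2 lower for the folding factors, 3 and 3 for the ERAD factors, and 1 and 1 for the translocon and related genes.

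Of 25 other signalling genes of the unfolded protein response, 6 rose and 4 fell (median log2 fold change 0.093). That is 24% and 16%, against 15.4% and 14.6% of all tested genes. Ddit3 (CHOP), the stress-induced transcription factor downstream of PERK, had 5.88 to 6.15 log2 CPM with the mimic and 5.29 to 5.38 with the control, and no libraries overlapped. Its difference of 0.66 ± 0.053 on the log2 scale (SE; limma adjusted p = 8.86e-08) exceeded that of each of the 32 genes. Wfs1 (wolframin), an ER membrane protein that restrains ATF6 signalling, had 7.20 to 7.37 log2 CPM with the mimic and 7.68 to 7.80 with the control, and a log2 fold change of -0.42 ± 0.040 (adjusted p = 6.1e-07). Both were called without mimic replicates 3, 4 and 6, where 6 genes of the list were higher and 3 lower.

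The cytosolic chaperones, the counterpart outside the ER, gave 11 of 31 higher and 2 lower (median log2 fold change 0.092). Their shares of 35.5% and 6.45% were close to the 34.4% and 6.25% of the 32 ER genes, whose median was 0.075. With all 11 libraries the higher calls were thus not particular to the ER genes. Stip1, which links HSP70 to HSP90, was at 0.23 ± 0.046 (SE; limma adjusted p = 0.00192), and the HSP90 cochaperone Fkbp4 was at -0.19 ± 0.045 (adjusted p = 0.00521). Without mimic replicates 3, 4 and 6 the likeness was weaker. In that fit 3 of these 31 chaperones were called higher and 1 lower, and 7 of the 32 ER genes higher and 2 lower. The shares of all tested genes were 9.36% and 6.83%. Of 15 genes for ER shape and autophagy of the ER 3 rose and 4 fell (20% and 26.7%, median 0.020). The sheet-forming protein Ckap4 was at -0.26 ± 0.046 (limma adjusted p = 0.000889) and the tubule fusion factor Atl3 at 0.29 ± 0.059 (limma adjusted p = 0.00206). Without mimic replicates 3, 4 and 6, 2 genes of this list were higher and 2 lower.

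In the authors' deposited table, 11 of the 32 genes have a positive log2 fold change and 2 a negative one at a deposited adjusted p below 0.05, and these are the 13 genes called here, each in the same direction. For Hspa5 the authors' deposited table gives a log2 fold change of 0.32, with limits of 0.26 and 0.39, and for Herpud1 one of -0.34, with limits of -0.48 and -0.20.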

How the data were processed

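RNA sequencing was analysed from 6 mimic and 5 negative control libraries, grouped by sample title. The series text mentions 1 more control sample, omitted for improper fragmentation and not analysed here. The submitters' processing notes name STAR, Subread, featureCounts and edgeR. Their versions and the build, annotation and strand setting are not given in the sources used here. As deposited by the authors, expression is in log2 CPM, which the values themselves show to be whole reads plus 0.5 over a scaled library total (100% whole within 0.01 read), with scaled totals 0.97 to 1.03 times the recovered ones. The authors' deposited table also holds fold changes as log2 values with p-values and adjusted p-values per gene, from a test that no source used here names, and signed linear folds, t and log-odds scores by the authors, which were not used. A linear model had been planned as the main test for values deposited as log2 CPM, so no count model was the main test. The recovered reads were used in some of the alternatives.

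Linear models with a group term were fitted to all 12969 genes with limma 3.58.1 (R 4.3.3, statmod 1.5.0), using an intensity trend and robust settings, with Benjamini-Hochberg adjustment over all of them; adjusted p below 0.05 was called. Folds are on the deposited log2 CPM scale, which understates changes of low genes. The steps were also run on simulated data, and no result of that run is given here. The run is therefore no measure of how well changes as small as those called here are recovered. Nor does it measure recovery in libraries with a length trend or with unequal spread between the groups. No library was counted as a duplicate, since every pair of replicates differed by more than counting noise (chi-square per gene 2.57 to 44.1). Coordinates and transcript lengths are from GENCODE M21 (GRCm38), joined by Ensembl ID, and may not be the authors' annotation. Promoter sequences are from RefSeq (GRCm38.p6). Tables were made with pandas 2.3.3 and numpy 2.4.6, and plots with matplotlib 3.10.9.

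All 32 members were named, and from each of the 6 lists of other genes the 2 called genes with the smallest p. The members and lists were chosen with earlier results of these data known. Alternatives covered scaling, the filter, the pseudocount, the test, a replicate block, each library left out, mimic replicates 3, 4 and 6 left out and a per-library length correction (lowess, span 0.3). Matches to the miR-150 seed and protein sequences were not analysed here.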

Additional observations from a re-analysis of the deposited data

Results flagged for a closer look

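In 64 groups (32 genes, each in the mimic and in the control libraries), the highest or lowest library was set against the others by Dixon's test at its 95% critical value, and 6 groups held a library that stood apart. Chance gives about 1 in 20 groups. With the mimic, Creld2 was low in replicate 2, at 4.93 log2 CPM against 5.05 to 5.12 in the other 5, and Xbp1 was low in replicate 4, at 7.17 against 7.24 to 7.27. With the control, Hspa5 was high in replicate 3, at 9.50 log2 CPM against 9.42 to 9.43 in the other 4, and still below every mimic library. Dnajb9 was high in control replicate 2, at 4.18 against 4.07 to 4.08. Dnajc3 was low in control replicate 6, at 7.13 against 7.21 to 7.23, and Pdia3 was low in control replicate 1, at 7.70 against 7.73 to 7.74.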

How the results depend on the processing

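Of 23 alternatives, Hspa5, Dnajb11, Canx, Pdia3 and Pdia4 were called higher and Herpud1 and Sdf2l1 lower in every one. No result among those recomputed reversed a call. With upper-quartile scaling 8 of the 32 genes were higher and 4 lower, and their median log2 fold change was 0.042, where that over all tested genes was -0.032. With voom and sample weights 15 were higher and 5 lower, beside 2964 and 2665 of all tested genes. Without mimic replicates 3, 4 and 6, 7 were higher with a median of 0.045, and 1214 of all tested genes were higher and 886 lower. The length correction gave a median of 0.041, and with the replicate block added 0.040. With 1 library left out at a time, 9 to 14 of the 32 were higher and 2 to 5 lower (5 without mimic replicate 1), the median was 0.055 to 0.090, and 1488 to 2693 of all tested genes were higher and 1403 to 2506 lower. Over the 23 alternatives, the called counts of the lists of other genes ranged over 4 to 9 higher and 2 to 12 lower for folding, 3 to 11 and 3 to 15 for ERAD, 1 to 7 and 1 to 10 for translocon and related genes, 5 to 9 and 3 to 6 for signalling, 3 to 16 and 1 to 3 for cytosolic chaperones, and 2 to 4 and 2 to 5 for ER shape. Over the same alternatives, all tested genes gave 1214 to 2964 higher and 886 to 2665 lower. The cause was not tested.

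Whether the replicate numbers pair the samples is not stated. Same-numbered libraries had correlations of -0.061 to 0.062 (5 pairs) in their deviations from the group mean. Libraries of different number had -0.10 to 0.11 (25 pairs). The length trend of single libraries also enters these deviations, so they cannot settle whether samples with the same replicate number were paired. With the number as a block, in which mimic replicate 5 has no partner, 8 of the 32 were higher and 2 lower (median 0.071), and 1777 of all tested genes were higher and 1796 lower. Pdia6, Atf6 and Ssr3 lost their calls there (limma adjusted p = 0.0663, 0.0689 and 0.0678) and with upper-quartile scaling, and their log2 fold changes with the block were 0.11, 0.12 and 0.15. Atf6 and Ssr3 also lost theirs with scaling by total reads. In all, Atf6 was called in 11 of the 23 alternatives, Ssr3 in 12 and Pdia6 in 21. Hsp90b1 lost its call with no filter on low values (adjusted p = 0.109, limma). Depth limits Sec61g most, at 49 to 79 reads per library.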
